A study of Mus musculus with 66 samples.

Results

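Calcium uptake in the distal mouse gut was followed through 5 genes: S100g, Trpv6, Vdr, Cyp24a1 and Atp2b1. They are 5 of the 30452 genes in the deposited table and were found by symbol, with the abundances of a gene's transcripts added together. S100g was chosen by its measured level at day 9 of a colitis course, which fell far below its level at day 0 in mid-colon and rectum. The other 4 genes were placed beside it for their roles in the same pathway, with earlier results of these data known. The change from day 0 to day 9 in mid-colon and rectum therefore describes the choice and carries no test here for any of the 5, and S100g is tested only in contrasts that use neither the day 0 nor the day 9 samples of those 2 sections. The rectal samples of day 9 do enter 1 tested contrast of the other genes, neo-epithelium against rectum over days 9, 14 and 20, which is also given without day 9. The day 0 samples of mid-colon and rectum enter the tests of the other genes against day 0 in those sections. They also enter the tests between sections at day 0 and between the responses of the 2 sections.

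The samples were 66 bulk RNA libraries from 19 wild-type C57Bl/6 mice, bought at 6 weeks of age. Colitis was induced with DSS (dextran sulfate sodium), which damages the lining of the colon, given at 3% for 6 days from day 0, so the day 3 mice were killed during exposure. There were 4 uninjured mice at day 0 and 3 mice at each of days 3, 6, 9, 14 and 20. Mid-colon, rectum and anus were taken from every mouse (19 samples each), and a section of squamous neo-epithelium, new squamous tissue at the anorectal junction, from the 9 mice of days 9, 14 and 20. All mice shared one genotype, and later days have no undosed control of the same age. The muscle layer was removed before RNA isolation, but anal samples still held skeletal muscle RNA. The summed level of 4 skeletal muscle markers was 832 to 9319 TPM in anus at day 0. It was 10.5 to 25.3 TPM in rectum at day 0 and 0.499 to 1.24 TPM in neo-epithelium at day 9. The part of this RNA in differences between anus and other samples was not tested. Values are TPM, a length-adjusted share of the RNA in a library, so fewer cells of a type and less RNA per cell cannot be told apart. Without counts, the depth behind a value is unknown.

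Epithelial cells move calcium across themselves in 3 steps. TRPV6, encoded by Trpv6, is the channel that lets calcium in at the apical side, S100g encodes calbindin-D9k, a small protein that binds calcium in the cytosol, and Atp2b1 encodes PMCA1, a pump that exports calcium at the basolateral side. Vdr encodes the nuclear receptor for the active form of vitamin D, which pairs with RXR receptors such as Rxra and raises transcription of Trpv6 and S100g in the intestine. Cyp24a1 encodes the enzyme that breaks down active vitamin D and is a classical target of the receptor. The large bowel as well as the duodenum uses this route.

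S100g (ENSMUSG00000040808) lies on the minus strand at chrX:162961992-162964599 and Trpv6 (ENSMUSG00000029868) on the minus strand at chr6:41620624-41636405. Vdr (ENSMUSG00000022479) lies on the minus strand at chr15:97854425-97910630, Cyp24a1 (ENSMUSG00000038567) on the minus strand at chr2:170482708-170497145 and Atp2b1 (ENSMUSG00000019943) on the plus strand at chr10:98914406-99026143. All are protein-coding genes of GENCODE vM21 on mm10 (GRCm38). RefSeq (GRCm38.p6) gave upstream sequence for 4 of the 5 genes, and the 250 bases before the start site are shown for the binding protein and the entry channel, the 2 genes described above as raised by the receptor. Both are written 5′ to 3′ on the gene's strand, and capitals mark AGGTCA or its reverse complement TGACCT, the hexamer that nuclear receptors such as the vitamin D receptor read in pairs.
S100g, chrX:162964600-162964849: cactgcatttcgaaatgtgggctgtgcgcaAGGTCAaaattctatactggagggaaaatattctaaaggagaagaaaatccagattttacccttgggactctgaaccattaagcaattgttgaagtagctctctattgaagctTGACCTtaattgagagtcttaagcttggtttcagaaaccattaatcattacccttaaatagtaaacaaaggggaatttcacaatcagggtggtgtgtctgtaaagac
Trpv6, chr6:41636406-41636655: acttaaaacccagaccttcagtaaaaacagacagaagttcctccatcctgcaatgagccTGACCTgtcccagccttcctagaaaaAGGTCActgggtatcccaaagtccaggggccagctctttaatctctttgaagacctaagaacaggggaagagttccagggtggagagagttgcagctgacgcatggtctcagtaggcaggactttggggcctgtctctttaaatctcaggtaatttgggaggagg
Each of these windows held 2 matches to AGGTCA, counted on both strands. Of 32851 RefSeq windows of this length, 14.0% held at least 1 match and 1.36% held at least 2. The windows of Vdr and of the 2 start sites of Atp2b1 held none. GGGCGG, the GC box, was matched 3 times before Vdr and 4 and 3 times before the start sites of Atp2b1, and not before S100g or Trpv6, against 32.7% of all windows with a match. No window of these genes held 2 copies of this hexamer, allowing G for its first A and T for its inner G, in the same direction and 3 bases apart, an arrangement found in 13 of the 32851 windows. A match describes the letters only.

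In uninjured tissue the uptake genes were abundant in mid-colon and rectum and low in anus. S100g stood at 234, 324, 721 and 303 TPM in the 4 mid-colon samples, at 188, 197, 599 and 170 TPM in rectum, and at 6.33, 23.3, 15.0 and 20.5 TPM in anus. The anal samples lay wholly below the others, while mid-colon and rectum overlapped. Trpv6 was much scarcer than its partner at 19.0 to 36.0 TPM in mid-colon, 19.0 to 31.3 TPM in rectum and 4.78 to 9.80 TPM in anus. Vdr, the receptor, was at 207 to 454 TPM in mid-colon with a rectal range of 287 to 379 TPM. Atp2b1, the exporter, was at 46.2 to 104 TPM in mid-colon with a rectal range of 59.5 to 90.9 TPM.
In a limma fit with Benjamini-Hochberg adjustment over all genes, the 3 tested genes were all lower in anus than in rectum at day 0, where 34.4% of 13158 genes were lower. The log2 differences were -2.45 ± 0.32 (SE) for Atp2b1 (adjusted p = 0.00013), -2.24 ± 0.33 for Vdr (adjusted p = 0.00027) and -1.87 ± 0.23 for Trpv6 (adjusted p = 9.68e-05). Below, a lone value in parentheses after a difference and its SE, or after a mouse or scaling that was tried, is the adjusted p of that fit. Anal sections are mostly squamous. The summed level of 6 squamous markers was 11225 to 19843 TPM in anus and 16.2 to 137 TPM in rectum. Epcam, from the list of pan-epithelial markers, was 195 to 494 TPM in anus and 1166 to 1344 TPM in rectum. Epcam was lower in the squamous sections, so a value relative to it in anus or neo-epithelium is not a value per epithelial cell. Relative to Epcam none of the 3 genes differed beyond the threshold, and the differences were 0.23 for Trpv6, 0.03 for Vdr and -0.26 for Atp2b1. S100g, given without a test, stayed lower in anus on that scale (-1.78). Per 1000 TPM of Epcam it was 29.9 to 97.7 TPM in anus and 140 to 447 TPM in rectum. Rectum and mid-colon gave no call for these genes at day 0, where 1.79% of 12037 genes were called and 0 of the 3 had an unadjusted p under 0.05. The differences were -0.17 for Trpv6, 0.00 for Vdr and 0.04 for Atp2b1.

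**Figure D1:**
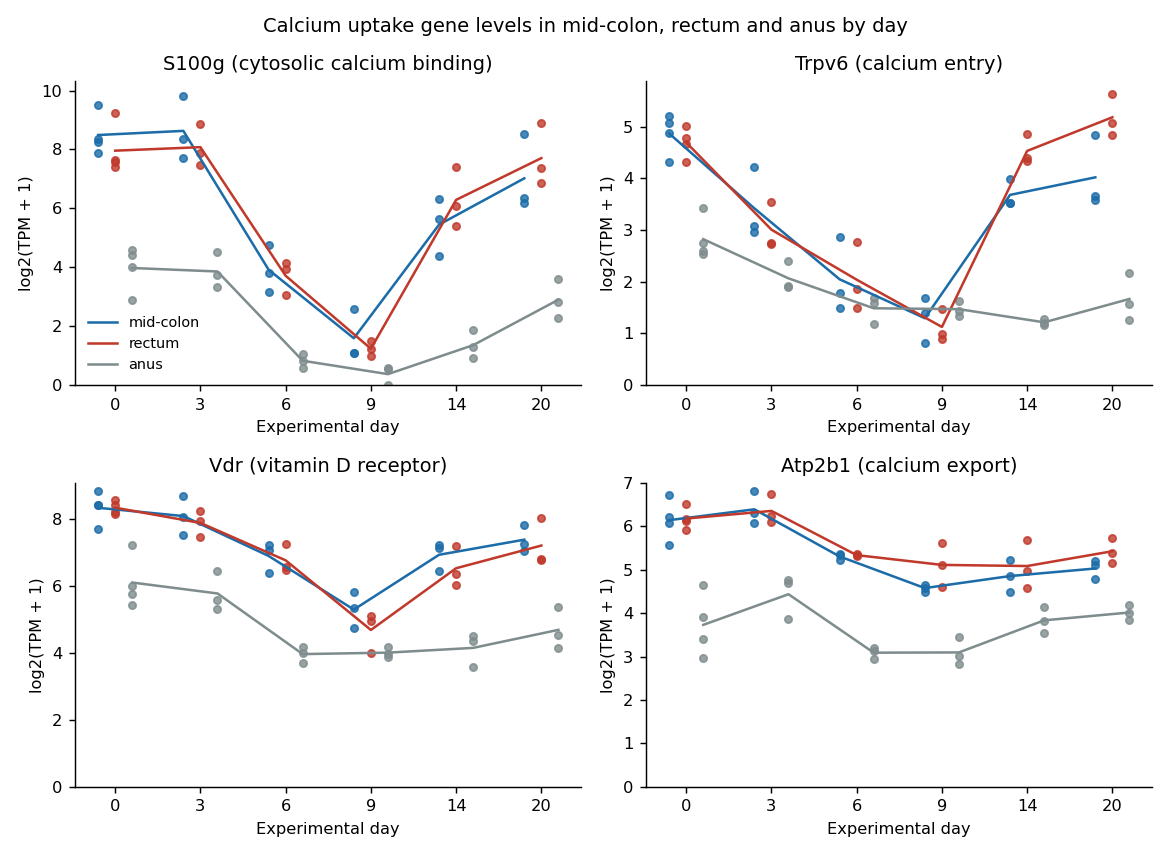
Level of S100g, Trpv6, Vdr and Atp2b1, as log2(TPM + 1), by experimental day in mid-colon, rectum and anus. Points are single mice (4 at day 0, 3 on other days) and lines join the group means. S100g at day 3 overlaps day 0 in all 3 sections, when Trpv6 is already lower, and both are lowest at day 9 in mid-colon and rectum.

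At day 3, during DSS exposure, the entry channel was the only tested gene of the group to pass the test, and it did so in rectum. Trpv6 was 5.66, 5.75 and 10.6 TPM in rectum, all below the day 0 range of 19.0 to 31.3 TPM. It fell by 1.69 ± 0.22 on the log2 scale (adjusted p = 0.00282), where 5.13% of 12348 genes fell. Of all calls in that contrast 77.4% were lower, and 63% under trimmed-mean scaling. In mid-colon Trpv6 was 6.82, 7.47 and 17.6 TPM against 19.0 to 36.0 TPM, again with no overlap. That difference was -1.45 ± 0.32 and missed the threshold (adjusted p = 0.121), where 0.308% of 12008 genes were lower. It passed under trimmed-mean scaling (adjusted p = 0.0229), with all 66 samples in one fit (0.0443), relative to Epcam (0.0389) and without mouse 7 (0.0471). In anus the 3 day 3 samples, 2.72 to 4.26 TPM, also lay below the 4 samples of day 0, with a difference of -0.76 ± 0.27 (adjusted p = 0.899), where 0.022% of 13639 genes were lower.
S100g did not share this early drop. It was 177, 237 and 465 TPM in rectum and 329, 206 and 911 TPM in mid-colon at day 3, overlapping day 0 in both sections. Vdr differed by -0.46 ± 0.17 in rectum (adjusted p = 0.179) and -0.25 ± 0.30 in mid-colon (adjusted p = 0.764). Atp2b1 differed by 0.18 ± 0.18 in rectum (adjusted p = 0.651) and 0.25 ± 0.27 in mid-colon (adjusted p = 0.732). The ratio of S100g to Trpv6 within a sample therefore moved from 7.43 to 19.1 at day 0 to 31.2 to 43.8 at day 3 in rectum, and from 8.24 to 20.0 to 27.6 to 51.9 in mid-colon. Ratios of the 2 days did not overlap in either section, which is a description since the day 0 samples took part in choosing S100g. By day 6 the ratio was 2.87 to 5.51 in rectum and 4.18 to 5.35 in mid-colon, below both earlier days.

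**Figure D2:**
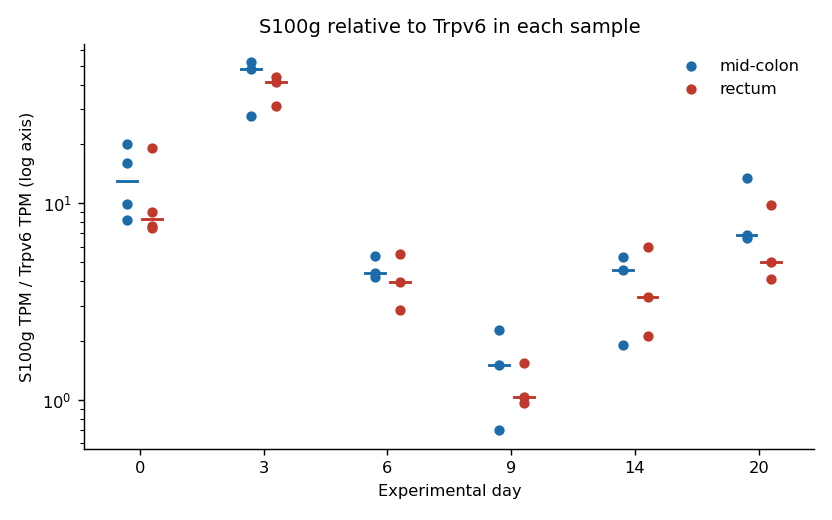
Ratio of S100g TPM to Trpv6 TPM in each mid-colon and rectum sample by day, on a log axis, with points for single mice and bars for group medians. The median rose to 48.3 in mid-colon and 41.2 in rectum at day 3, from 12.9 and 8.31 at day 0, and was lowest at day 9 (1.50 and 1.04). S100g was chosen for its fall from day 0 to day 9 in these samples, so those ratios are a description.

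Between days 3 and 6 S100g, Vdr and Atp2b1 fell in both sections, and Trpv6 passed the test in mid-colon only. S100g was 26.3, 7.97 and 13.1 TPM in mid-colon at day 6, against 206 to 911 TPM at day 3. It fell by 4.71 ± 0.54 on the log2 scale (adjusted p = 0.00355). In rectum it was 16.6, 7.25 and 14.5 TPM against 177 to 465 TPM and fell by 4.37 ± 0.38 (adjusted p = 0.00111). No day 6 sample came near the day 3 range in either section. All 4 tested genes fell in mid-colon between these days, where 27% of 11862 genes fell, and 3 of 4 in rectum, where 17.3% of 12182 fell. Atp2b1 fell by 1.09 ± 0.19 in mid-colon (adjusted p = 0.0104) and 1.02 ± 0.17 in rectum (adjusted p = 0.00651), and Vdr by 1.19 ± 0.31 (0.025) and 1.12 ± 0.25 (0.0166). Trpv6 fell by 1.37 ± 0.42 in mid-colon (0.039), and its difference in rectum was -0.97 ± 0.35 (0.0716), where the 2 days overlapped. In mid-colon the calls of Trpv6 and Vdr were lost under trimmed-mean scaling (0.114 and 0.083) and without the filter on low values (0.114 and 0.0811), and that of Trpv6 with the most abundant transcript only (0.0569). They were also lost without mouse 6, 7 or 10, and that of Trpv6 without mouse 9, with adjusted p up to 0.119. The Vdr call in rectum was lost without mouse 6, 7 or 8 (adjusted p up to 0.0596), without the filter (0.0605) and with all 66 samples in one fit (0.0516). The Trpv6 difference there was called without mouse 8 (0.0277), with mitochondrial genes left out (0.0428) and relative to Epcam (0.0269). Over all genes the median change from day 3 to day 6 was -0.38 in mid-colon and -0.20 in rectum, and -0.01 and -0.04 under trimmed-mean scaling. Of all calls 84.9% in mid-colon and 63.3% in rectum were lower, and 37.5% and 40.6% under that scaling.

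Against day 0, each of the 3 tested genes was lower at day 6 in both sections, where 9.99% of 11967 genes fell in mid-colon and 37.2% of 12615 in rectum. Under trimmed-mean scaling those shares were 7.17% and 16.8%, the lower share of all calls went from 66.9% to 44.3% and from 76.3% to 46.8%, and the 3 genes were called lower in both sections all the same. Trpv6 was 6.28, 1.82 and 2.45 TPM in mid-colon and 5.79, 1.83 and 2.63 TPM in rectum. It fell by 2.82 ± 0.33 (adjusted p = 0.00121) and 2.66 ± 0.29 (adjusted p = 0.00043). Vdr was 136, 149 and 82.4 TPM in mid-colon and 93.4, 153 and 88.3 TPM in rectum, a fall of 1.44 ± 0.28 (0.0109) and 1.57 ± 0.19 (0.0007). Atp2b1 was 39.3, 36.3 and 40.3 TPM in mid-colon and 39.2, 40.0 and 39.0 TPM in rectum, a fall of 0.84 ± 0.23 (0.0418) and 0.84 ± 0.14 (0.00219). None of these day 6 values reached the day 0 range. The mid-colon call of Atp2b1 was lost without any of mice 1, 2, 3, 8, 9 and 10 (adjusted p up to 0.121), without the filter (0.0991) and with the most abundant transcript only (0.0547). S100g itself was lower by 4.57 and 4.25, given here as a description. Epithelial markers moved in both directions in rectum. The summed level of 4 goblet markers was 17579 to 18725 TPM at day 6 against 8137 to 10655 TPM at day 0, with 4 higher. All 4 neutrophil and all 4 macrophage markers were called higher as well. Epcam was 1109 to 1575 TPM at day 6 and 1166 to 1344 TPM at day 0, while the summed level of 6 pan-epithelial markers was 8444 to 11479 TPM against 10435 to 12628 TPM, with 1 called lower and none higher. The summed level of 9 colonocyte markers was 14553.5 to 15485 TPM against 10402.8 to 12690 TPM, with 4 markers higher and 4 lower. Within that list Car1 was 5205 to 6694 TPM against 3352 to 4883 TPM, without overlap. Cdx2, an intestinal transcription factor of the same list, was 0.841 to 2.47 TPM against 2.24 to 4.54 TPM, with overlap. The part of these shifts in the fall of the uptake genes was not tested. In mid-colon the colonocyte sum was 13251.5 to 16225.7 TPM at day 6 and 12418.6 to 16508 TPM at day 0, with 3 of 9 lower. The goblet sum there was 22072 to 24524 TPM at day 6 and 15502 to 19876 TPM at day 0, with 2 of 4 higher. The response at day 6 did not differ between rectum and mid-colon beyond the threshold for any of the 3 tested genes (0% of 12986 genes called, and 0 of the 3 with an unadjusted p under 0.05). The 95% intervals of the difference ran from -0.87 to 1.20 for Trpv6, from -0.94 to 0.67 for Vdr and from -0.63 to 0.62 for Atp2b1.

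**Figure D3:**
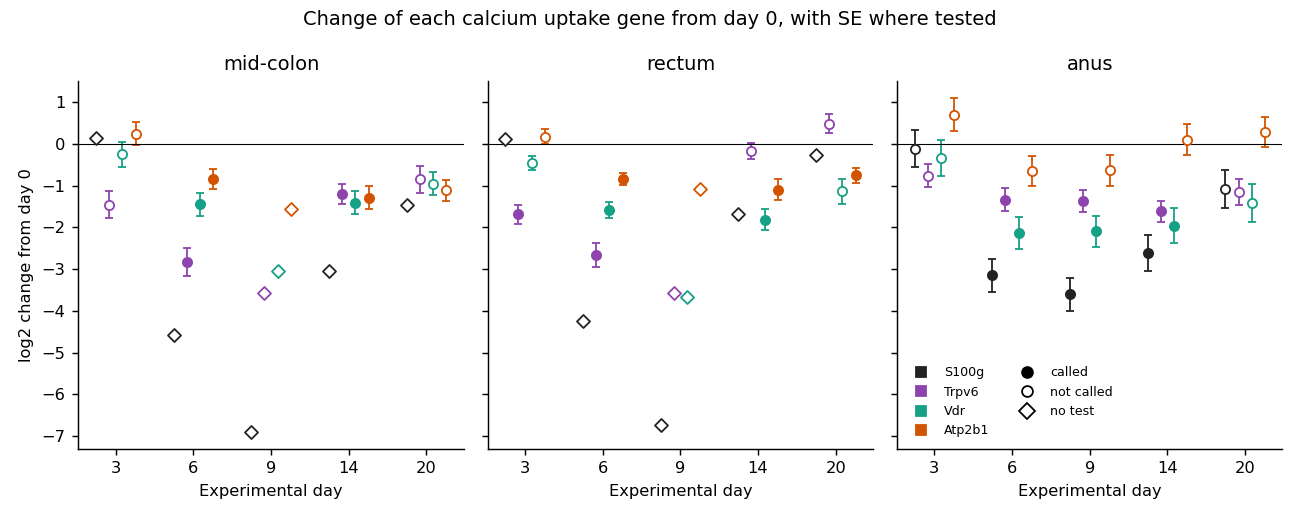
Log2 change of each gene from day 0 by day in mid-colon, rectum and anus, with SE bars where a test was made. Filled circles passed an adjusted p of 0.05, open circles did not, and diamonds mark values given without a test. Trpv6 is the only filled circle at day 3, and at days 14 and 20 in rectum it lies nearest to its day 0 level among the tested genes.

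Day 9, 3 days after DSS ended, was the low point of S100g. Its values were 4.99, 1.14 and 1.13 TPM in mid-colon and 1.85, 1.33 and 0.962 TPM in rectum, which are log2 differences of -6.90 and -6.72 from day 0. Trpv6 was 2.21, 0.761 and 1.61 TPM in mid-colon and 1.79, 0.867 and 0.995 TPM in rectum (-3.58 and -3.57). Vdr was 39.3, 25.9 and 55.1 TPM and 33.1, 15.0 and 30.3 TPM (-3.04 and -3.66). Atp2b1 changed least, at 24.3, 21.4 and 23.1 TPM and 48.1, 23.2 and 33.7 TPM (-1.56 and -1.07). For each of these genes every day 9 sample lay below every day 0 sample. In this contrast 17% of 12323 genes in mid-colon and 20% of 13140 in rectum were lower at adjusted p under 0.05, and nothing is read from that for the genes it chose. Summed colonocyte markers were 3574 to 5598 TPM in mid-colon and 3530 to 4516 TPM in rectum at day 9. In rectum 7 of 9 were lower and 2 higher, and 4 neutrophil markers summed to 10373 to 12252 TPM against 0.797 to 5.22 TPM at day 0. The part of these shifts in the fall of the uptake genes was not tested. Per 1000 TPM of Epcam, S100g was 0.942 to 1.68 TPM in rectum at day 9 and 140 to 447 TPM at day 0.

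In rectum at day 14 the receptor and the exporter were still lower than at day 0, while the entry channel gave no call against day 0 at day 14 or day 20. Differences between genes were not tested. Trpv6 was back in its day 0 range in rectum by day 14, at 28.0, 19.3 and 20.1 TPM, and stood at 32.5, 49.0 and 27.7 TPM at day 20. Its difference from day 0 was -0.16 ± 0.19 (adjusted p = 0.581) at day 14 and 0.49 ± 0.23 (adjusted p = 0.194) at day 20, with a 95% interval from -0.03 to 1.00 at day 20. Vdr was 147, 80.7 and 65.1 TPM in rectum at day 14, below every day 0 sample, and lower by 1.81 ± 0.26 (adjusted p = 0.00912), where 9.51% of 12749 genes were lower. At day 20 Vdr was 112, 108 and 263 TPM, all still below 287 TPM, with a difference of -1.13 ± 0.29 (adjusted p = 0.0535). That difference was called without mouse 19 (0.000887), which gave the high value, with a filter of 5 TPM (0.043) and relative to Epcam (0.0466). The lower share of all calls at day 14 was 60.1%, 49.8% under trimmed-mean scaling and 81.9% relative to Epcam.
Atp2b1, the exporter, was 50.6, 30.5 and 23.1 TPM in rectum at day 14 and 52.5, 34.4 and 41.0 TPM at day 20, below the 59.5 TPM that was the lowest at day 0. It was lower by 1.09 ± 0.26 (adjusted p = 0.0306) and by 0.75 ± 0.18 (adjusted p = 0.0461), where 4.88% of 12677 genes were lower at day 20. The day 14 call was lost without any of mice 1, 2, 3, 4, 15 and 16 (adjusted p up to 0.102) and the day 20 call without mouse 1, 2, 3, 4 or 18 (up to 0.121). Without the filter both were lost (0.0627 and 0.0917), and the day 20 call also with all 66 samples in one fit (0.0714) and with the most abundant transcript only (0.0569). S100g in rectum was 167, 40.8 and 66.9 TPM at day 14 and 164, 480 and 114 TPM at day 20, the later day overlapping day 0.

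In mid-colon all 3 tested genes were still lower at day 14, where 1.81% of 12135 genes were lower. Trpv6 was 10.6, 10.5 and 14.9 TPM (-1.19 ± 0.24, adjusted p = 0.0301). Vdr was 147, 140 and 86.6 TPM (-1.40 ± 0.28, 0.0291) and Atp2b1 36.1, 28.0 and 21.5 TPM (-1.29 ± 0.27, 0.0356). The samples lay below day 0 throughout, but each of the 3 calls was lost without mouse 1, 2, 3, 15 or 16 (adjusted p up to 0.171), and none was made without the filter on low values (0.0686 to 0.0877), and that of Atp2b1 was lost with the most abundant transcript only (0.0504). At day 20 no tested gene passed in mid-colon, where 0.883% of 12116 genes were lower, though 3 of 3 had an unadjusted p under 0.05. Atp2b1 was 33.3, 26.7 and 35.7 TPM, below all day 0 samples (-1.11 ± 0.25, adjusted p = 0.0575), and Vdr 153, 132 and 228 TPM (-0.95 ± 0.27, 0.0968). Atp2b1 passed without mouse 4 (0.0143), under trimmed-mean scaling (0.0276), with a filter of 5 TPM (0.0472), with all 66 samples in one fit (0.00596) and relative to Epcam (0.0321), and Vdr without mouse 4 (0.0235) or mouse 19 (0.0481). Trpv6 was 11.6, 27.6 and 10.9 TPM (-0.85 ± 0.33, 0.182), with mouse 18 inside the day 0 range and the others below it. The rectal minus mid-colonic response of Trpv6 at day 20 was 1.34 ± 0.44 (adjusted p = 0.848, 0.00756% of 13234 genes called), with a 95% interval from 0.40 to 2.27 before adjustment over genes. The summed colonocyte markers were 6249 to 10028 TPM in rectum and 5573 to 8862 TPM in mid-colon at day 20, below their day 0 ranges.

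From day 6 to day 20, S100g rose by 4.00 ± 0.52 in rectum (adjusted p = 0.0161) and by 3.10 ± 0.64 in mid-colon (adjusted p = 0.0408). Trpv6 rose by 3.14 ± 0.36 (0.0111) and 1.97 ± 0.45 (0.0467). These were 2 of 4 tested genes in each section, where 2.24% of 12541 genes rose in rectum and 3.81% of 11977 in mid-colon. Of all calls 25.7% and 24.3% were lower, and 59.1% and 61.2% under trimmed-mean scaling. Vdr differed by 0.44 ± 0.37 in rectum (0.462) and 0.49 ± 0.28 in mid-colon (0.307), and Atp2b1 by 0.09 ± 0.18 (0.774) and -0.28 ± 0.17 (0.333). The rectal call of S100g was lost without mouse 8, 9, 10 or 17 (adjusted p up to 0.0788) and that of Trpv6 without mouse 10 or 17 (up to 0.0624), and both without the filter on low values (0.0712 and 0.059). In mid-colon the S100g call was lost without mouse 8, 9, 10 or 17 (up to 0.153), the Trpv6 call without any of the 6 mice (0.056 to 0.182), and both under trimmed-mean scaling (0.0627 and 0.0708), without the filter (0.123 and 0.132), with the most abundant transcript only (0.0675 and 0.0774) and relative to Epcam (0.0563 and 0.0633).

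Ordered by mean level, S100g in rectum ran from day 3 (293 TPM) through days 0 (288), 20 (253), 14 (91.7) and 6 (12.8) to day 9 (1.38 TPM). Neighbours overlapped down to day 14, and days 14, 6 and 9 were separate. Trpv6 in rectum ran from day 20 (36.4 TPM) through days 0 (25.3), 14 (22.5), 3 (7.34) and 6 (3.42) to day 9 (1.22 TPM), with a gap between days 14 and 3 and between days 6 and 9. The highest mouse was often the same in 2 sections. The one with the highest S100g in mid-colon also had the highest in rectum on 5 of 6 days. The same held for Trpv6 and for Vdr, and for Atp2b1 it was 4 of 6 days. How often this holds for other genes was not counted. Mouse 18 was highest for S100g at day 20 in mid-colon (368 TPM), rectum (480 TPM) and neo-epithelium (303 TPM), while mouse 19 was highest for Vdr in the same 3 sections.

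Anal tissue allowed a test of S100g itself in samples that did not choose it, since its choice rested on the other sections. The anal samples of days 0 and 9 came from the same mice as the choosing samples, however. Tests that use them are therefore not fully independent of the choice. S100g was 0.511, 1.10 and 0.757 TPM at day 6, 0.459, 0 and 0.486 TPM at day 9, 1.45, 0.875 and 2.64 TPM at day 14 and 11.2, 3.79 and 6.08 TPM at day 20. Samples of days 6, 9 and 14 all lay below the 6.33 to 23.3 TPM of day 0. It fell by 3.15 ± 0.40 at day 6 (adjusted p = 0.0016), 3.60 ± 0.40 at day 9 (0.00135) and 2.62 ± 0.43 at day 14 (0.0163), and at day 20 differed by -1.08 ± 0.46 (0.254). Of the 4 tested genes, 3 were lower on each of days 6, 9 and 14 and none at days 3 and 20, when 1 and 3 had an unadjusted p under 0.05. Among all genes 6.37% of 13730 were lower at day 6, 3.63% of 13591 at day 9, 2.01% of 13763 at day 14 and 0.371% of 13747 at day 20.
Vdr fell by 2.14 ± 0.39 (0.00844), 2.10 ± 0.38 (0.0157) and 1.95 ± 0.42 (0.0411) on days 6, 9 and 14, and Trpv6 by 1.34 ± 0.27 (0.0134), 1.36 ± 0.26 (0.0211) and 1.61 ± 0.26 (0.0147). At day 6 the Trpv6 call was lost without mouse 8 (0.0666). Calls of Trpv6 and Vdr at day 9 were lost without mouse 11, 12 or 13 (up to 0.0948) and without the filter (0.065 and 0.0594). At day 14 the S100g call was lost without mouse 2 or 15 (up to 0.06), that of Trpv6 without mouse 15 or 16 (up to 0.0605) and that of Vdr without mouse 1, 2, 14, 15 or 16 (up to 0.164). Those of S100g and Vdr were also lost without the filter (0.0534 and 0.103) and that of Vdr with the most abundant transcript only (0.073). At day 20 Trpv6 (0.026) and Vdr (0.0135) were called lower with all 66 samples in one fit. Atp2b1 gave no call in anus on the TPM scale. It was 8.10, 7.80 and 6.70 TPM at day 6 against 6.80 to 24.1 TPM at day 0.
The colonocyte markers and Epcam moved with these genes in anus, and the squamous markers did not. Squamous markers summed to 16344 to 21106 TPM at day 6 against 11225 to 19843 TPM at day 0, with 2 higher and 0 lower. Colonocyte markers summed to 697 to 2256 TPM at day 0 and 34.7 to 70.6 TPM at day 6, with 8 of 8 tested lower and Cdx2 listed at 0, and Epcam was 53.7 to 74.0 TPM against 195 to 494 TPM. Relative to Epcam, S100g was still lower at days 6 and 9: per 1000 TPM of Epcam it was 6.91 to 20.5 TPM at day 6 and 0 to 6.35 TPM at day 9, against 29.9 to 97.7 TPM at day 0. On that scale Trpv6 changed sign at days 6 and 9 (0.30 and 0.06), and the Vdr differences were -0.14 and -0.33, not called. Atp2b1 was called higher on that scale at day 6 (1.35, adjusted p = 0.00362), day 9 (1.12, 0.00898) and day 14 (1.15, 0.0272), where 85%, 84.1% and 49.2% of all genes were called higher.

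In neo-epithelium S100g, Trpv6 and Vdr rose between days 9 and 20. The day 9 mice were among those whose mid-colon and rectum chose S100g. Tests of S100g that use neo-epithelium of day 9 are therefore not fully independent of the choice. At day 9 Trpv6 was listed at 0.0225, 0 and 0.055 TPM, at day 14 it was 13.2, 1.79 and 8.57 TPM, and at day 20 it was 23.1, 14.6 and 11.8 TPM. S100g went from 0.872, 2.06 and 0.266 TPM through 25.5, 4.76 and 9.26 TPM to 81.7, 303 and 36.5 TPM. All 3 days were separate for S100g, and day 9 was separate from later days for Trpv6. From day 9 to day 20, S100g rose by 5.66 ± 0.75 (adjusted p = 0.00486), Trpv6 by 4.04 ± 0.25 (0.00122) and Vdr by 2.88 ± 0.48 (0.0089), 3 of 4 tested where 10.1% of 13186 genes rose. Atp2b1 was 23.8, 18.1 and 17.0 TPM and later 52.5, 30.6 and 29.4 TPM, a difference of 0.87 ± 0.26 (0.0505) that passed without mouse 18 (0.0495), under trimmed-mean scaling (0.0388), with a filter of 5 TPM (0.0462) and with all 66 samples in one fit (0.0189).
Vdr was 8.08, 11.4 and 10.7 TPM at day 9 and 82.0, 38.5 and 160 TPM at day 20. Over the same days the summed colonocyte markers went from 32.7 to 278 TPM to 2024 to 4102 TPM and Epcam from 136 to 193 TPM to 529 to 883 TPM. Squamous markers stayed high, at 26183 to 27779 TPM and 17071 to 18814 TPM. Relative to Epcam the rise of Vdr was 0.75 and not called (0.105), and Atp2b1 was called lower (-1.31, adjusted p = 0.00234), where 89.4% of all genes were called lower. S100g and Trpv6 rose on that scale too (4.34 and 4.05, adjusted p = 0.00267 and 7.86e-05).

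Against the anus of the same mice over days 9, 14 and 20, neo-epithelium held more S100g (2.16 ± 0.47, adjusted p = 0.000942) and more Atp2b1 (1.23 ± 0.13, 6.47e-07), 2 of 4 tested where 40.1% of 13256 genes were higher. Vdr (0.61 ± 0.33, 0.123) and Trpv6 (0.87 ± 0.47, 0.115) were not called. The Trpv6 difference passed without mouse 12 (0.0422), and both were called higher with all 66 samples in one fit (0.0315 for Vdr and 0.000862 for Trpv6). Relative to Epcam, where 85.9% of all genes were called lower, Vdr was called lower (-1.10, adjusted p = 0.000294), Trpv6 (-1.09, 0.0738) and Atp2b1 (-0.41, 0.0807) had the opposite sign without a call, and S100g stayed higher (1.08, 0.0438). The lower share of all calls was 33%, and 48.5% under trimmed-mean scaling. Against rectum over the same 3 days, Trpv6 (-1.29 ± 0.25, 0.000455) and Vdr (-1.25 ± 0.29, 0.00196) were lower, where 22% of 13024 genes were lower and 20.9% higher. Relative to Epcam Trpv6 was still lower (-0.53, 0.0472), Vdr was not called (0.31, 0.301) and Atp2b1 was called higher (1.24, 8.46e-05), where 89.3% of all genes were called higher. On days 14 and 20 alone S100g was lower too (-1.92 ± 0.62, 0.0313), with Trpv6 (-1.39 ± 0.35, 0.00997) and Vdr (-1.26 ± 0.39, 0.0271), 3 of 4 where 15.9% of 13060 genes were lower and 17.3% higher. The S100g call was lost without mouse 14, 15 or 16 (up to 0.108) and the Vdr call without mouse 15 or 16 (up to 0.0925), and both without the filter (0.0606 and 0.0517). Relative to Epcam none of these 3 passed, and Atp2b1 was called higher (0.94, 0.00908), where 77.3% of all genes were. Atp2b1 differed from rectum by -0.12 ± 0.21 (0.706), with a 95% interval from -0.57 to 0.34.

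**Figure D4:**
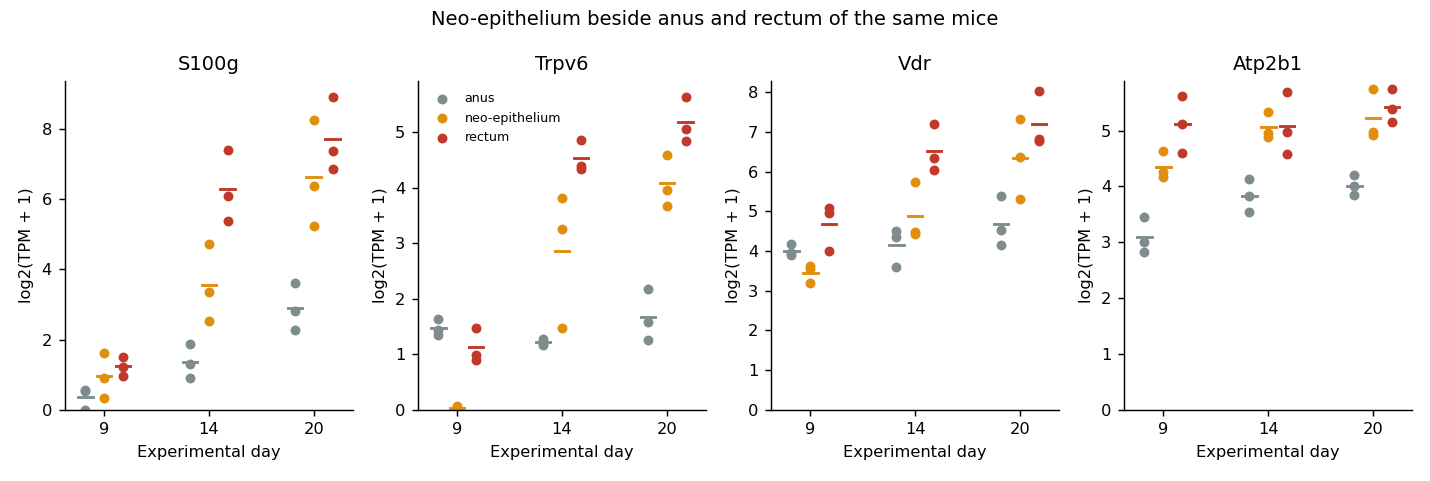
Level of 4 uptake genes, as log2(TPM + 1), in neo-epithelium, anus and rectum of the same 9 mice at days 9, 14 and 20, with points for mice and bars for means. Trpv6 in neo-epithelium is near 0 at day 9 and 11.8 to 23.1 TPM at day 20, and Atp2b1 lies above anus on every day.

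Cyp24a1 could not be followed in these tissues. It was listed at 0 in 63 of 66 samples, and its highest value was 0.0243 TPM, in anus at day 14. The 3 samples above 0 were all anal. It never passed the filter of 1 TPM, so no change was tested. Slc30a10, a manganese exporter that is also a known target of the vitamin D receptor, passed the filter in mid-colon and rectum. Its use as a readout of the receptor was not tested. Slc30a10 was 4.88 to 10.1 TPM in mid-colon at day 0 and 0.0373 to 0.808 TPM at day 9. At day 14 it was 0.535 to 2.92 TPM, lower by 1.97 ± 0.35 (adjusted p = 0.0212), a call lost without mouse 1, 3, 15 or 16 (up to 0.112) and without the filter (0.0665). In rectum, where it started at 1.62 to 2.62 TPM, it was lower at day 6 (-0.93 ± 0.22, 0.00911) and day 14 (-1.26 ± 0.22, 0.0143), the latter lost without mouse 16 (0.0626). Its rectal means were then 0.772 and 0.402 TPM, below the 1 TPM of the filter. Its day 3 values, 1.42 to 4.72 TPM in rectum and 5.12 to 14.0 TPM in mid-colon, overlapped day 0, as those of S100g did.

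The 44 other genes listed for calcium transport and vitamin D, of which 25 to 28 passed the filter in a contrast, moved in both directions at day 6 in rectum. There 5 of 25 tested were higher and 14 lower, beside 11.5% and 37.2% of all genes, and their median change was -0.49 where that of all genes was -0.27. Under trimmed-mean scaling 5 were higher and 7 lower, beside 19% and 16.8% of all genes. At day 3 in rectum 3 of 26 were lower and none higher, beside 5.13% and 1.5% of all genes, and these were 2 of the 3 claudins of the paracellular route and Rxra. Cldn2, which forms a cation pore between cells, was 24.6 to 26.9 TPM in rectum at day 0, 1.38 to 2.74 TPM at day 3 and 0.177 to 0.795 TPM at day 6. It fell by 3.08 ± 0.16 (adjusted p = 7.53e-05) and 4.29 ± 0.17 (6.39e-06), and in mid-colon by 1.74 ± 0.29 at day 3 (0.0473), a call lost without mouse 1, 2, 3, 5, 6 or 7 (up to 0.157), without the filter (0.174), with all 66 samples in one fit (0.166), with the most abundant transcript only (0.0617) and with a pseudocount of 0.1 (0.053). Cldn2 thus shared its early fall with Trpv6 but not its later course, since by day 9 it was 14.9 to 30.6 TPM in rectum and 33.0 to 50.3 TPM in mid-colon, when Trpv6 was at its lowest. Cldn15, a second cation-pore claudin, changed in rectum by -1.04 ± 0.18 at day 3 (0.00963) and by -2.15 ± 0.13 at day 6 (3.10e-05), and was higher than day 0 at day 14 (0.89 ± 0.17, 0.0183; 6.31% of all genes higher) and day 20 (0.91 ± 0.13, 0.0152; 2.79% of all genes higher). The Cldn15 call at day 14 was lost without mouse 1, 2 or 16 (up to 0.0762) and that at day 20 without mouse 1, 2 or 3 (up to 0.0675). With all 66 samples in one fit its calls at days 3, 14 and 20 were lost (0.245, 0.129 and 0.137), and with its most abundant transcript alone likewise (0.855, 0.17 and 0.112).
Of 10 tested partners and cofactors of the receptor, 9 were lower in rectum at day 6, beside 37.2% of all genes. Under trimmed-mean scaling 4 were lower, beside 2115 of 12613 genes. Rxra, the usual partner of Vdr, was 21.3 to 28.0 TPM in rectum at day 0 and 11.3 to 19.4 TPM at day 3, when it was lower (-0.68 ± 0.17, adjusted p = 0.0495), a call lost without any of mice 1 to 6 (up to 0.148), without the filter (0.12), with all 66 samples in one fit (0.191), with the most abundant transcript only (0.102) and with a pseudocount of 0.1 (0.0519). By day 6 it had fallen from 24.6 ± 2.93 to 11.1 ± 1.29 TPM (SD, n = 4 and 3; -1.08 ± 0.13, adjusted p = 0.0006) and it was still lower at day 14 (-1.10 ± 0.18, 0.0132) and day 20 (-0.95 ± 0.14, 0.0152), the last lost without mouse 1, 2 or 3 (up to 0.067). In mid-colon 2 of 10 were lower at day 6, Rxra (-1.19 ± 0.31, 0.0338) and Rxrb (-0.62 ± 0.17, 0.0406), beside 9.99% of all genes. Leaving out mouse 1, 2, 3, 9 or 10 lost both calls, and leaving out mouse 8 that of Rxrb (up to 0.121). Both were also lost without the filter (0.0924 and 0.0641), and that of Rxrb under trimmed-mean scaling (0.0899) and with the most abundant transcript only (0.0889). All 3 tested genes listed for regulation of the entry channel were higher in rectum at day 6, beside 11.5% of all genes. They were S100a10 and Anxa2, which carry TRPV channels to the membrane, and Rab11a, a recycling GTPase (0.57, 0.81 and 0.70, adjusted p = 0.00425, 0.000985 and 0.000806). Relative to Epcam 2 of the 3 were higher. Of the enzymes that make active vitamin D, Cyp27a1 was lower in anus at day 6 (-0.78 ± 0.19, 0.0288), a call lost without mouse 3, 8, 9 or 10 (up to 0.122) and with all 66 samples in one fit (0.0776). Relative to Epcam it was called higher (1.27, adjusted p = 0.00793). Cyp27a1 was also lower at day 9 in rectum (-1.93 ± 0.32, 0.00108) and mid-colon (-1.25 ± 0.26, 0.0031), beside 20% and 17% of all genes. In neo-epithelium it was lower than in anus over days 9, 14 and 20 (-1.23 ± 0.21, 9.74e-05), where 2610 of 13256 genes were lower.

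Calb1, which encodes the larger calbindin-D28k, was high in a few late samples. It was 0.38 to 2.17 TPM in rectum at day 0 and 9.31, 121 and 161 TPM at day 20, higher by 4.97 ± 0.86 (adjusted p = 0.0238). The call was lost without mouse 1, 2, 3, 4 or 18 (adjusted p up to 0.0812) and without the filter (0.0636). In neo-epithelium it was 0.171 to 2.67 TPM at day 9 and 11.6, 527 and 817 TPM at day 20, higher by 6.47 ± 1.53 (0.0251), a call lost without mouse 11, 12, 13, 18 or 19 (up to 0.0842) and without the filter (0.0572). High values stood beside low ones in the same group: 0.397, 28.8 and 378 TPM in rectum at day 9 and 3.09, 232 and 453 TPM in anus at day 14.

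The 5 genes whose log2(TPM + 1) was most like that of S100g over the 66 samples, among 9300 genes with a mean of at least 5 TPM, were Slc39a5 (Pearson r = 0.904), Cyp2c68 (0.903), Utp14b (0.893), Mettl7a2 (0.891) and Dio1 (0.885). Trpv6 ranked 6th (0.885), Vdr 10th (0.873) and Atp2b1 344th (0.776). Epcam ranked 884th (0.703) and the colonocyte gene Car1 814th (0.711). The samples share sections, days and mice, so these values are a description. Slc39a5, a zinc transporter, was 28.4 to 43.2 TPM in rectum at day 0, 33.9 to 42.6 TPM at day 3 and 1.06 to 2.09 TPM at day 9. Dio1, a deiodinase of thyroid hormone, was 98.3 to 115 TPM at day 0 in rectum, 41.6 to 65.6 TPM at day 3 and 2.19 to 2.81 TPM at day 9.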

How the data were processed

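The authors deposited 1 table of TPM per Ensembl transcript for 66 libraries. The submitters' processing notes name CASAVA, kallisto and mm10, without versions; the transcript index is not given in the sources used here. Reads were single-end, 75 bp, per the labels' protocols. Of 126860 deposited rows, 37344 held no values and 1318 were repeats of a transcript, and both were left out; each library then summed to 1000000 TPM. TPM were summed per gene over 88198 transcripts (30452 genes). Between 11268 and 13789 genes reached 1 TPM per library. Mitochondrial genes held 6.26% to 28.5% of the TPM.

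Groups followed the section and day in the labels (21 groups, 27 contrasts). limma 3.58.1 (R 4.3.3) with a mean-expression trend was fitted on log2(TPM + 1), on the contrast's own samples, to genes that reached 1 TPM in at least n samples, n being the size of the smaller group. Adjustment was Benjamini-Hochberg over all genes tested, and calls are adjusted p under 0.05. Fold changes are on the log2(TPM + 1) scale, which understates change in low genes. The ± values on log2 differences are SE. Replicates are separate mice, and sections of 1 mouse share it. Pairing came from the mouse number in the labels: deviations from group means correlated on average at 0.05 to 0.35 between sections of a mouse, depending on the contrast. The fits were tested on simulated data with known changes. Alternatives were another scaling (a trimmed mean of log ratios, unweighted, on TPM; Epcam, chosen after seeing the data; mitochondrial genes left out), pseudocount 0.1, no filter or one of 5 TPM, all samples in one fit, the most abundant transcript only, a mouse block, and each mouse left out.

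The genes, the pathway list and the markers were chosen with earlier results of these data known. Named genes were the 5 members, up to 4 called pathway genes with the largest change per contrast, and the 5 most like S100g; S100a10, Anxa2 and Rab11a, Slc30a10 at other days, Calb1 in other groups and Stc2 were named after their values were seen. Some pathway genes that this rule selects are counted in the totals but not reported singly here. Promoter windows came from RefSeq, GRCm38.p6.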

Additional observations from a re-analysis of the deposited data

Results flagged for a closer look

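S100g in the rectum of mouse 3 at day 0 was 599 TPM, against 170 to 197 TPM in the other 3 uninjured mice, a gap of 0.937 of the group's range. Chance marks about 1 in 20 groups in this way, and 12 groups of 4 were checked. Mouse 3 also held the highest S100g, Trpv6 and Vdr of day 0 in mid-colon and rectum.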

How the results depend on the processing

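Of 46 called differences of these genes, 40 kept their sign in every alternative and 6 changed it, all relative to Epcam in contrasts with anus or neo-epithelium. With the mouse as a replicate block, no call changed in the 7 contrasts where it could be fitted. Leaving out mitochondrial genes changed the number of these genes called in 1 of 25 contrasts, rectum day 6 against day 3, to 4 in place of 3. TPM carry no depth, so the precision of low values such as those of Trpv6 at day 9 is unknown, and with 3 mice per group many calls rest on each mouse. The cause of the shifts below was not tested.

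The number of these genes called moved by more than 1.5 times as follows, and smaller moves of 1 gene are given in the report beside the calls they change. In mid-colon at day 3 it was 1 in place of 0 with trimmed-mean factors, with all 66 samples in one fit and relative to Epcam. In mid-colon at day 14 it was 0 in place of 3 without a filter. In mid-colon at day 20 it was 1 in place of 0 with trimmed-mean factors, with a filter of 5 TPM, with all samples in one fit and relative to Epcam. In rectum at day 14 it was 1 in place of 2 without a filter. In rectum at day 20 it was 0 in place of 1 without a filter, with all samples in one fit and with the most abundant transcript only, and 2 with a filter of 5 TPM and relative to Epcam. In anus at days 9 and 14 it was 1 in place of 3 without a filter, and at day 20 it was 2 in place of 0 with all samples in one fit. For mid-colon day 6 against day 3 it was 2 in place of 4 with trimmed-mean factors and without a filter. For mid-colon day 20 against day 6 it was 0 in place of 2 with trimmed-mean factors, without a filter, with the most abundant transcript only and relative to Epcam, and 1 with a pseudocount of 0.1. For rectum day 20 against day 6 it was 0 in place of 2 without a filter. For day 0 anus against rectum it was 0 in place of 3 relative to Epcam. For neo-epithelium against anus it was 1 in place of 2 with a filter of 5 TPM and 4 with all samples in one fit. For neo-epithelium against rectum at days 14 and 20 it was 1 in place of 3 without a filter and relative to Epcam.

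Leaving out each mouse in turn gave 0 to 1 called in mid-colon at day 3, 0 to 3 at day 14 and 0 to 2 at day 20. It gave 1 to 2 in rectum at day 14 and 0 to 2 at day 20, 1 to 3 in anus at day 9 and 0 to 3 at day 14. It gave 2 to 4 for mid-colon day 6 against day 3, 0 to 1 for mid-colon day 20 against day 6, 0 to 2 for rectum day 20 against day 6 and 1 to 3 for neo-epithelium against rectum at days 14 and 20. Differences that were not called changed sign without a mouse in these ranges. Vdr ran from -0.55 to 0.0318 in mid-colon at day 3, from -0.66 to 0.0480 in anus at day 3, from -0.17 to 0.0910 for day 0 rectum against mid-colon and from -0.25 to 0.0651 for the sections' response at day 6. Atp2b1 ran from -0.0173 to 0.31 in rectum at day 3, from -0.15 to 0.41 in anus at day 14, from -0.0684 to 0.23 for rectum day 20 against day 6, from -0.0694 to 0.11 for day 0 rectum against mid-colon, from -0.22 to 0.0209 for neo-epithelium against rectum at days 14 and 20 and from -0.0816 to 0.10 for the sections' response at day 6. S100g ran from -0.49 to 0.15 in anus at day 3.

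Signs also reversed with scaling. With trimmed-mean factors Vdr was -0.26 and Atp2b1 -0.22 for day 0 rectum against mid-colon, and Atp2b1 was -0.19 for rectum day 20 against day 6 and 0.0201 for the sections' response at day 6. Relative to Epcam, Trpv6 in anus was 0.30 at day 6 and 0.0581 at day 9, Atp2b1 1.35 and 1.12, and Cyp27a1 1.27 at day 6. For day 0 anus against rectum Trpv6 was 0.23, Vdr 0.0260, Cldn12 0.35 and Cldn15 0.15, and for day 0 rectum against mid-colon Vdr was -0.0810 and Atp2b1 -0.0461. For neo-epithelium against anus Trpv6 was -1.09, Vdr -1.10 and Atp2b1 -0.41. Against rectum over 3 days Vdr was 0.31, Atp2b1 1.24 and Cldn12 0.27, and over days 14 and 20 Atp2b1 was 0.94. From day 9 to day 20 in neo-epithelium Atp2b1 was -1.31.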

Other observations

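Of the 3 tested genes of calcium sensing and hormones, 2 were higher and 1 lower in neo-epithelium than in rectum over days 9, 14 and 20, beside 20.9% and 22% of all genes. Pthlh, which encodes parathyroid hormone-related protein, was 6.78 to 12.8 TPM in neo-epithelium at day 9, 6.71 to 11.2 TPM at day 14 and 1.51 to 4.87 TPM at day 20, and in rectum it was at most 1.28 TPM on those days. In the limma fit over the 3 days it was higher in neo-epithelium by 2.23 ± 0.24 on the log2 scale (adjusted p = 1.51e-06), in 9 of 9 samples without overlap. Pthlh fell by 1.71 ± 0.39 in neo-epithelium from day 9 to day 20 (adjusted p = 0.0228), while S100g, Trpv6 and Vdr rose. That call of Pthlh was lost without mouse 12, 13 or 17 (adjusted p up to 0.0922) and without the filter on low values (0.0517). Stc1, which encodes the secreted hormone stanniocalcin-1, was higher in neo-epithelium than in rectum on days 14 and 20 (1.18 ± 0.21, adjusted p = 0.00185), beside 17.3% of all genes. Stc2, which encodes the related stanniocalcin-2, was lower over the 3 days (-0.81 ± 0.15, adjusted p = 0.000247).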
